A study of Mus musculus with 9 samples.

Results

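A set of 10 nuclear receptor and ligand sensor genes was followed through activation of natural killer T (NKT) cells in vivo: Nr1i2, Nr1i3, Ahr, Ppara, Pparg, Nr1h3, Vdr, Rxra, Hnf4a and Hnf4g. They were listed by name, as sensors of xenobiotics, lipids and vitamin D and the factors they work with, and no threshold on a measured value entered the rule. They were, however, chosen with earlier results of these data known. They make up 10 of the 29288 genes in the count table, and all 10 were among the 18933 genes with enough counts to be tested. RNA was sequenced from intestinal epithelial cells (IECs) of wild-type (WT) female C57BL/6J mice, with 3 mice per group and 1 library per mouse. Control mice had been injected intraperitoneally with PBS and were sampled at 18 h, 18h-αGal mice had received 2 µg of the NKT cell lipid antigen α-galactosylceramide (αGalCer) and were sampled at 18 h, and 72h-αGal mice had received the same dose and were sampled at 72 h. In every group the cells were live EpCAM+ cells, negative for Ter119, CD31 and CD45, sorted from crypts of the proximal small intestine. The only controls were sampled at 18 h, so that at 72 h the effect of αGalCer and that of the time of sampling cannot be told apart.

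Nuclear receptors are transcription factors whose activity is set by small lipophilic ligands. PXR (Nr1i2) and CAR (Nr1i3) respond to drugs and bile acids and switch on enzymes and pumps that clear them, the PPARs respond to fatty acids, LXRα (Nr1h3) to oxysterols and VDR to vitamin D and bile acids, and most of these act as heterodimers with a retinoid X receptor such as RXRα (Rxra). AHR, a sensor of dietary and microbial ligands, belongs to another protein family, and HNF4α and HNF4γ are receptors that bind DNA as dimers of their own kind and sustain the enterocyte program. Because a ligand can change the activity of such a receptor while its transcript stays level, the level of receptor RNA and the levels of its target genes are separate measurements.

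Total counts per library ranged from 8887861 to 32722293, and a floor of 3 counts lay between 0.0917 and 0.338 CPM (counts per gene, scaled to a common library total), far under the level of any of the 10 genes. Control replicate 3 was the smallest library and stood apart from the other 8 on the second principal component. Values of the 10 genes without it are therefore given where they moved by more than 1.5 times. The summed level of 5 epithelial markers was 3717 to 4577 CPM over all libraries. The lymphocyte markers summed to 1.78 to 6.93 CPM and the stromal and endothelial markers to 1.55 to 6.01 CPM. The myeloid markers summed to more, at 29.1 to 33.0 CPM in the control, 27.8 to 43.8 CPM in the 18h-αGal and 40.7 to 55.8 CPM in the 72h-αGal mice. All 72h-αGal sums of the myeloid markers lay above all control sums, and edgeR called 0 of the 6 tested in any comparison. Crypts hold several epithelial types, and in bulk RNA fewer cells of a type cannot be told apart from less RNA per cell.

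Per kilobase of exon, Hnf4a was the highest in the control mice, with 209 ± 8.43 CPM per kb (mean ± SD, n = 3), followed by Vdr with 134 ± 4.88, Hnf4g with 93.6 ± 28.6, Nr1i2 with 41.7 ± 5.79 and Rxra with 28.3 ± 4.49 CPM per kb. These 5 levels did not overlap between neighbours in the order. Ahr, Ppara and Nr1h3 formed a group of overlapping levels, at 7.59 ± 1.42, 6.58 ± 0.647 and 6.24 ± 2.14 CPM per kb, and Pparg and Nr1i3 were the lowest, at 1.84 ± 0.459 and 1.12 ± 0.153 CPM per kb. At 18 h Hnf4g, at 109 ± 20.6 CPM per kb, lay above Vdr, at 107 ± 10.7 CPM per kb, but the 2 genes overlapped. At 72 h the order of the means was that of the controls. Several receptors had a paralog at a higher level: Ppard, the third PPAR gene, stood at 62.7 ± 3.42 CPM per kb in the control mice and Nr1h2, which encodes LXRβ, at 28.9 ± 4.68 CPM per kb. RXRα was the main retinoid X receptor transcript, since Rxrb stood at 7.66 ± 0.548 CPM per kb and Rxrg had at most 8 raw counts in any library.

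**Figure D1:**
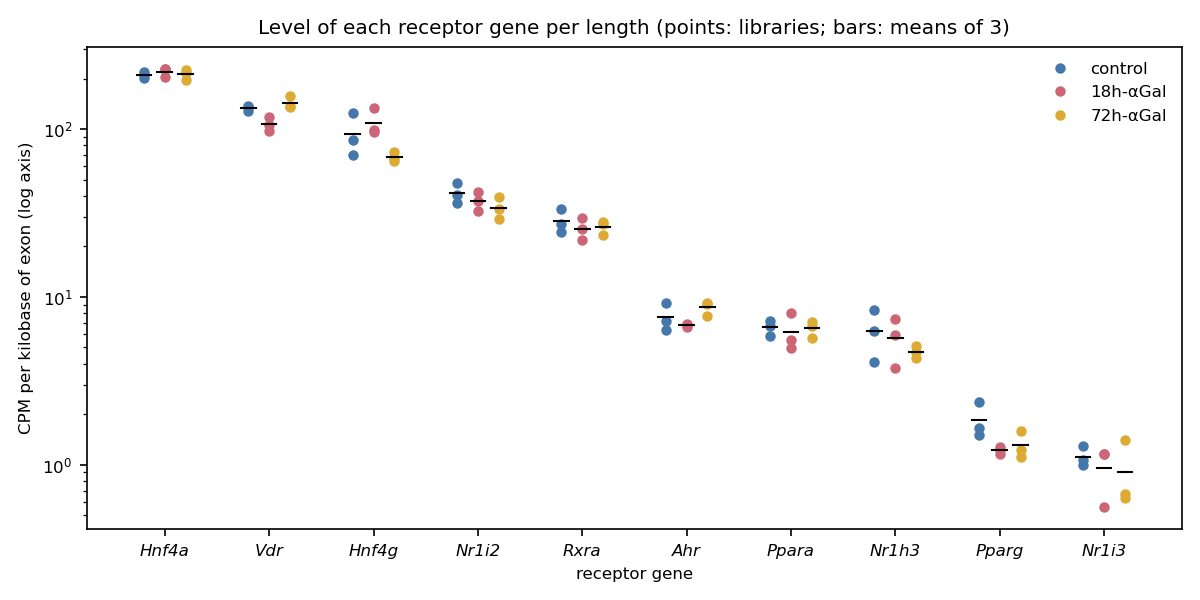
Level of the 10 genes in CPM per kilobase of exon on a log axis, with 1 point per library, coloured by group, and bars at the mean of 3 mice. Hnf4a, Vdr and Hnf4g lead in every group, and Pparg and Nr1i3 lie at the bottom.

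Promoter sequences of 8 of the 10 genes were found in the RefSeq table (build GRCm38.p6); Ahr and Hnf4g were not. The 250 bases before each annotated start were searched on both strands for an HNF4 motif, CAAAGTCCA, for the receptor hexamer AGGTCA, and for a direct repeat of that hexamer with 1 base between the copies. The HNF4 motif was in 0.384% of the 32851 windows of this length and in none of the 8 genes. The hexamer was in 14.0% of windows and, among the 8, in windows of Pparg and Rxra. The direct repeat was in 0.0335% of windows and in those of 0 of the 8. Of 18 listed PXR and CAR targets found in that table, 2, Cyp2c65 and Cyp3a11, held the HNF4 motif. The hexamer was in 6 of the 18, Cyp3a11 among them. The HNF4 motif was also in 1 of 7 VDR targets found there and in 0 of 11 HNF4 targets. Windows of Pparg, Rxra, Cyp2c65 and Cyp3a11 are shown. That of Vdr is added, since Vdr was 1 of the 2 receptor genes that changed between 18 and 72 h. They run 5′ to 3′ on the strand of the gene, and capitals mark the hexamer or the HNF4 motif, or their reverse complements. Pparg and Rxra have further starts that are not printed. A match describes the letters and is not evidence of binding.
Pparg (chr6:115360894-115361143, plus strand): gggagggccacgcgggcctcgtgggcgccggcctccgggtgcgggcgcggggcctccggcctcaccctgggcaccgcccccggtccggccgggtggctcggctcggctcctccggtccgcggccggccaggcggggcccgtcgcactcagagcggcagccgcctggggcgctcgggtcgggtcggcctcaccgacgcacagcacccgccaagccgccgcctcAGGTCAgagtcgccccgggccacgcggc
Rxra (chr2:27709042-27709291, plus strand): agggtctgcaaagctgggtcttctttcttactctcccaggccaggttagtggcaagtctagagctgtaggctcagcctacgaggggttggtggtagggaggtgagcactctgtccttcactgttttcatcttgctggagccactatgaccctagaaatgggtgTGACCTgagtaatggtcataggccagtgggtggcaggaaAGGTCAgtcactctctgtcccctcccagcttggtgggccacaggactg
Vdr (chr15:97908297-97908546, minus strand): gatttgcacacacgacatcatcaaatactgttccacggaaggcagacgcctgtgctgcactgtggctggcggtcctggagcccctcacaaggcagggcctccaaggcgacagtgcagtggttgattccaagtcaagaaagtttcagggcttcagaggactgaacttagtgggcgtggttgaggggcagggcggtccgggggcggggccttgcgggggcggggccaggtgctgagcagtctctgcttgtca
Cyp2c65 (chr19:39060756-39061005, plus strand): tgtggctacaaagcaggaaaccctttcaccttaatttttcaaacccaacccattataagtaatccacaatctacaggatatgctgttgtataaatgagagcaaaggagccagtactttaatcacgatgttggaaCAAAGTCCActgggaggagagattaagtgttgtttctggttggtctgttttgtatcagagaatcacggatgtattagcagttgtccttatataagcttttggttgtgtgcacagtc
Cyp3a11 (chr5:145879855-145880104, minus strand): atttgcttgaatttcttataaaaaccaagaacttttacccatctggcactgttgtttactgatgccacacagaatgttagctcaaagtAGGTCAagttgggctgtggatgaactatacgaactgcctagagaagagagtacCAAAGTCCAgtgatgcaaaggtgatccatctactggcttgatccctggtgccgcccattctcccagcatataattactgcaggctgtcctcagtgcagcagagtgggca

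At 18 h after αGalCer, the fitted log2 fold changes of the 10 receptor genes ran from -0.61 for Pparg to 0.22 for Hnf4g. By the quasi-likelihood test of edgeR, adjusted over all 18933 genes by the Benjamini-Hochberg method, 0 of the 10 differed between 18h-αGal and control mice at an adjusted p under 0.05, while 5.96% of all genes tested did. At an unadjusted p under 0.05 there were 2, Vdr and Pparg, both lower (20.8% of all genes, 10.3% lower and 10.5% higher), DESeq2 called 0 and limma-voom called 1, Vdr. Of the 10, 8 had a negative log2 fold change, against 52.4% of all genes. The median was -0.161 (all genes, -0.0301), and the median size of the change was 0.168 (all genes, 0.372). These medians were not matched for count level. For 8 of the 10 the 95% interval lay within a 2-fold change in either direction. Between 72h-αGal and control mice 0 of the 10 were called by edgeR, DESeq2 or limma-voom, beside 0.0264% of all genes in edgeR, and 1, Hnf4g, was lower at an unadjusted p under 0.05 (5.94% of all genes, 3.58% lower and 2.36% higher). Between 72h-αGal and 18h-αGal mice edgeR called 2 of the 10, beside 10.2% of all genes: Vdr was higher at 72 h (4.18% of all genes) and Hnf4g was lower (6.04%). These 3 comparisons share libraries pairwise, so they are not independent. The p-values weigh a difference between groups against the spread between these mice, estimated with information shared across genes.

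**Figure D2:**
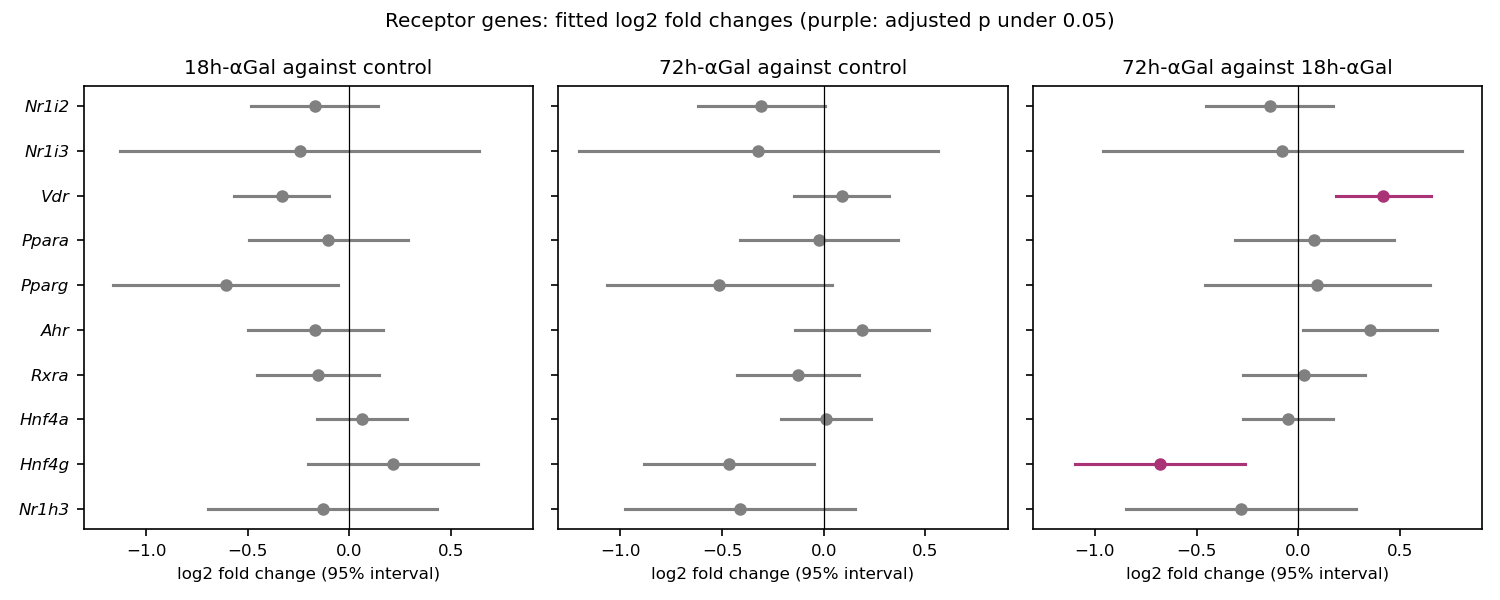
Fitted log2 fold change of each gene (points) with its 95% interval (lines) in the 3 comparisons; purple marks an adjusted p under 0.05. Most intervals cross 0, and Vdr and Hnf4g are called in the comparison of 72h-αGal with 18h-αGal, with 0.42 and -0.68.

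Among the xenobiotic sensors, Nr1i2 encodes PXR, a sensor of drugs and bile acids. Its normalised counts (raw counts divided by the size factor of the library) were 2134, 1911 and 2560.4 in the control mice, 1931, 1683 and 2223 in the 18h-αGal mice and 1732, 2045 and 1495 in the 72h-αGal mice. The groups overlapped. Its log2 fold change was -0.17 at 18 h (95% interval -0.48 to 0.14, adjusted p = 0.573 in edgeR) and -0.31 at 72 h (-0.62 to 0.0048, adjusted p = 0.841). Without control replicate 3 these values were -0.056 and -0.19.

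Nr1i3 encodes CAR, which shares many targets with PXR. CAR transcripts had normalised counts of 116, 90.2 and 97.5 in the control mice, 49.8, 103 and 105 in the 18h-αGal mice and 56.8, 126 and 58.9 in the 72h-αGal mice. The spread within both αGal groups was wider than any difference between groups, and the 95% interval at 18 h ran from -1.13 to 0.64 around a log2 fold change of -0.24 (adjusted p = 0.804 in edgeR), so that a smaller change was not detectable with these mice. Nr1i3 is also an uncertain measurement: it overlaps Tomm40l on the opposite strand over 3501 bases of exon, and 62.6% of its 50-base words occur in that gene, whose log2 fold change at 18 h was -0.46 (adjusted p = 0.447).

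Targets of PXR and CAR carry out drug metabolism and efflux. The list of them and the lists below were chosen with earlier results of these data known. The share of a list that was called, set beside that of all genes, is therefore descriptive and does not test the list. Of 19 listed and tested, 7 fell at 18 h and 0 rose, where 2.69% of all genes fell and 3.27% rose, and the median log2 fold change was -1.16. The 4 with the smallest adjusted p were Abcb1a, which encodes the efflux pump P-glycoprotein, the cytochrome P450 genes Cyp2c66 and Cyp2c55, and Gstm1, a glutathione transferase. Normalised counts of Abcb1a were 1444, 1231 and 2534 in the control mice, 425, 360.2 and 479 in the 18h-αGal mice and 1260.0, 1705 and 924 in the 72h-αGal mice. All 18h-αGal values of Abcb1a lay under all control values, and it fell by 2.03 on the log2 scale (SE 0.285, adjusted p = 0.00268 in edgeR). Normalised counts of Cyp2c66 were 527, 328 and 979.5 in the control mice, 54.9, 45.8 and 84.2 in the 18h-αGal mice and 232, 397 and 134 in the 72h-αGal mice. Cyp2c66 fell by 3.31 (SE 0.491, adjusted p = 0.00365), again without overlap, Cyp2c55 by 3.83 (SE 0.731, adjusted p = 0.0228) and Gstm1 by 1.36 (SE 0.256, adjusted p = 0.013).

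The other 3 that fell, named after their values were seen, were Cyp2b10, Cyp2c65 and the bilirubin-conjugating enzyme gene Ugt1a1, with log2 fold changes of -3.61, -1.11 and -0.88. Cyp3a11, the classical PXR target of the mouse, had a log2 fold change of -3.37 but an adjusted p of 0.0884, and its mean was 1767 ± 1109 in the control mice and 166 ± 62.4 in the 18h-αGal mice. Among the 19, Por, the electron donor of the P450 enzymes, and Alas1, which begins heme synthesis, had log2 fold changes of -0.013 and -0.13.

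At 72 h against control 0 of the 19 were called by edgeR, DESeq2 or limma-voom, 2 had an unadjusted p under 0.05, and the median was -0.399 (all genes, 0.0022). Between 72h-αGal and 18h-αGal mice 5 of the 19 rose (4.18% of all genes) and 0 fell, among them Abcb1a by 1.63 and Cyp2c66 by 2.07 on the log2 scale. The counts depended on single libraries: the 7 became 3 without control replicate 1, 2 without 18h-αGal replicate 1 and 2 without 18h-αGal replicate 2, and the 5 became 1 to 3 without control replicate 1, any 1 of the 18h-αGal replicates, or 72h-αGal replicate 1 or 2. Abcb1a and Cyp2c66 were called at 18 h in all 17 alternative analyses, Gstm1 in 13, Cyp2c65 in 12, Cyp2c55 and Ugt1a1 in 11 each and Cyp2b10 in 9. Gstm1 lost its call without any 1 of the 18h-αGal replicates (adjusted p = 0.0551, 0.0643 and 0.0604), and Cyp2c55 without any 1 of them or control replicate 1 (0.0632 to 0.11). The call of Cyp2b10 was lost without control replicate 1 or 3, any 1 of the 18h-αGal replicates or 72h-αGal replicate 1 (0.0628 to 0.143), that of Ugt1a1 without control replicate 1 or 3, 18h-αGal replicate 1 or 2 or 72h-αGal replicate 1 (0.0516 to 0.134), and that of Cyp2c65 without control replicate 1 or 18h-αGal replicate 1 or 2 (0.0812 to 0.113).

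**Figure D3:**
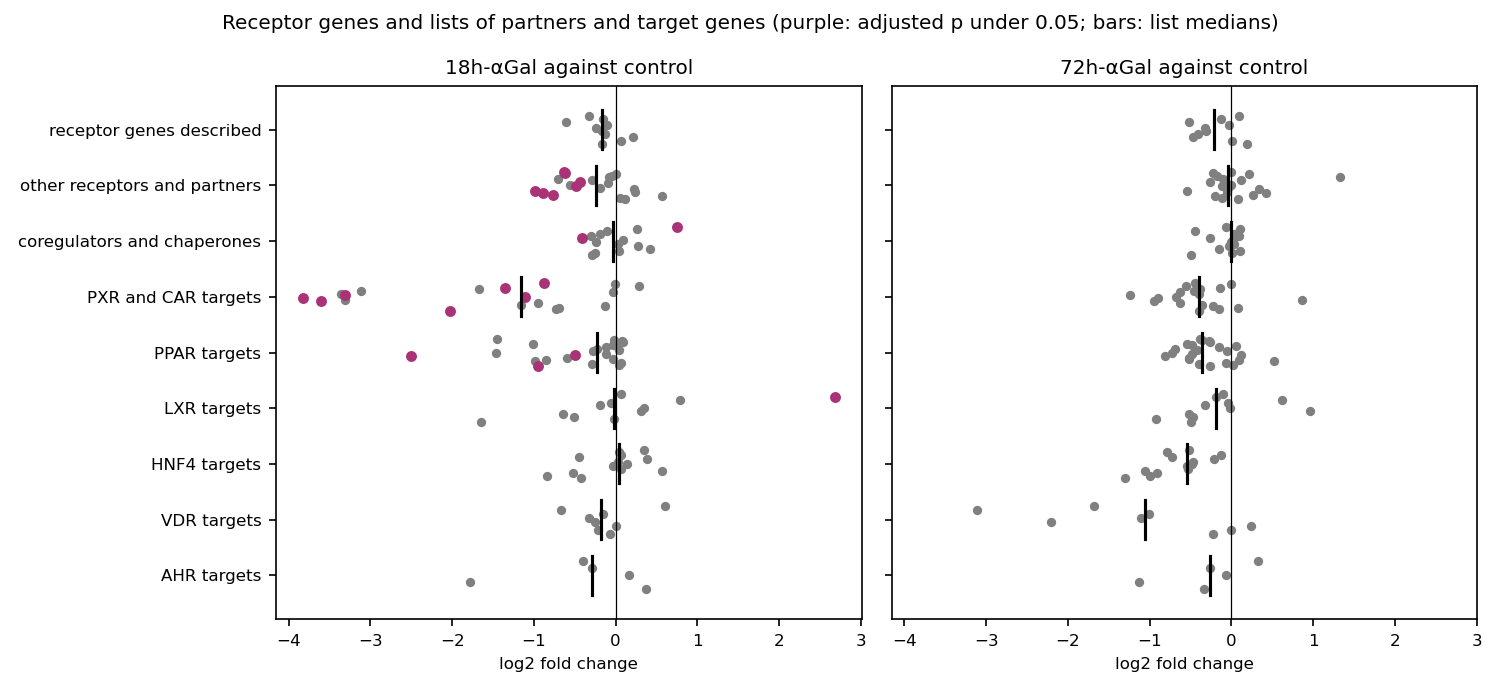
Log2 fold change of each gene tested (points) by list, at 18 h and at 72 h against control; purple marks an adjusted p under 0.05 and bars mark list medians. At 18 h the called PXR and CAR targets (7 of 19), other receptors (7 of 20) and PPAR targets (3 of 23) lie to the left. Of 11 LXR targets 1 is called to the right, and of 14 coregulators and chaperones 1 on each side. Of all genes 2.69% were called lower and 3.27% higher. In the top row edgeR calls 0 of the 10 genes.

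Ahr encodes the aryl hydrocarbon receptor, which dietary indoles and pollutants activate. For Ahr the normalised counts were 766, 865 and 1119.8 in the control mice, 811, 817 and 798 in the 18h-αGal mice and 917, 1101 and 1065 in the 72h-αGal mice. The 18h-αGal values lay within a narrow range inside that of the control mice, and all 72h-αGal values lay above all 18h-αGal values. Such separation was seen in 3 of the 10 genes between these groups, beside 32.8% of all genes. The log2 fold change of Ahr between 72h-αGal and 18h-αGal mice was 0.35 (95% interval 0.025 to 0.68), with an adjusted p of 0.171 in edgeR. Against control it was -0.17 at 18 h and 0.19 at 72 h, and without control replicate 3 it was -0.010 and 0.35. Of 8 listed AHR targets, 5 were tested and 0 were called by edgeR in any comparison; at an unadjusted p under 0.05 there were 0, 0 and 1 in the 3 comparisons (20.8%, 5.94% and 24.3% of all genes), and limma-voom called 1, between 72h-αGal and 18h-αGal mice. Cyp1a1, the best known AHR target, had means of 141, 40.4 and 63.8 normalised counts in the control, 18h-αGal and 72h-αGal mice and a log2 fold change of -1.78 at 18 h (adjusted p = 0.308).

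Of the fatty acid sensors, Ppara encodes PPARα, which drives fatty acid oxidation. Its normalised counts were 751, 857 and 932 in the control mice, 629, 695 and 1032 in the 18h-αGal mice and 902, 855 and 713 in the 72h-αGal mice. The groups overlapped, with a log2 fold change of -0.10 at 18 h (95% interval -0.49 to 0.29) and -0.023 at 72 h (-0.41 to 0.37), or -0.038 and 0.046 without control replicate 3. Ppara shares 25.7% of its 50-base words with Cdpf1 on the opposite strand, whose mean was 80.9 normalised counts in the control mice and 138 in the 18h-αGal mice.

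Pparg encodes PPARγ, the fatty acid receptor best known from adipocytes. Its normalised counts were 319, 223 and 207 in the control mice, 172, 163 and 157 in the 18h-αGal mice and 212, 163 and 148 in the 72h-αGal mice. All 18h-αGal values lay under all control values; Pparg and Vdr were the 2 of the 10 genes with no overlap between these groups, which was so for 23.8% of all genes. The log2 fold change of Pparg was -0.61 (SE 0.259, 95% interval -1.16 to -0.054, adjusted p = 0.192 in edgeR) at 18 h and -0.51 (adjusted p = 0.859) at 72 h. The adipocyte markers summed to 16.5 to 22.4 CPM in control, 7.96 to 14.8 CPM in 18h-αGal and 4.65 to 12.8 CPM in 72h-αGal mice. Cidec made up most of this sum, with means of 351, 218 and 184 normalised counts in the control, 18h-αGal and 72h-αGal mice. Plin1 had means of 15.3, 6.6 and 6.57, and 0 of these 2 tested markers were called. Lep had at most 12 raw counts in any library, and Adipoq was absent from the counted genes. The part of adipocyte RNA in the Pparg values was not tested.

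The PPAR targets act in fatty acid oxidation, uptake and storage. Of 23 tested out of 25 listed, 3 fell at 18 h and 0 rose (2.69% and 3.27% of all genes), with a median log2 fold change of -0.226 (all genes, -0.0301). Cd36, a fatty acid transporter, had normalised counts of 219, 165 and 359 in the control mice, 30.3, 32.3 and 69 in the 18h-αGal mice and 133, 209 and 73.6 in the 72h-αGal mice. Cd36 fell by 2.51 on the log2 scale (SE 0.453, adjusted p = 0.00507 in edgeR), the thiolase gene Acaa2 by 0.95 (SE 0.139, adjusted p = 0.00147) and Cpt1a, which admits fatty acids to the mitochondrion, by 0.49 (SE 0.106, adjusted p = 0.0138).

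The other 20 tested genes of the list were not called, with log2 fold changes at 18 h from -1.47 for Cyp4a10, a fatty acid hydroxylase, to 0.092 for Pex11a, a peroxisome gene. Of these 20, named after their values were seen, Vnn1 had -1.45 (adjusted p = 0.0604), Pdk4, a brake on glucose oxidation, -1.01 and the thioesterase gene Acot2 -0.85, whereas Acadl and Plin2, of lipid oxidation and storage, had 0.046 and 0.078. Vnn1 varied widely among the control mice, at 304 ± 241 normalised counts. Between 72h-αGal and 18h-αGal mice 4 of the 23 rose (4.18% of all genes) and 0 fell: the same 3 genes, Cd36 by 1.69, Acaa2 by 0.69 and Cpt1a by 0.61, and Acot1, an acyl-CoA thioesterase, by 1.51. These rises were called in all 17 alternatives for Acaa2 and Cpt1a, in 14 for Acot1 and in 12 for Cd36. At 72 h against control 0 of the 23 were called by edgeR, DESeq2 or limma-voom, and 1 had an unadjusted p under 0.05. The count at 18 h was 3 or 4 under each of the 17 alternatives, although Cpt1a was not called without control replicate 2 (adjusted p = 0.0532) or 18h-αGal replicate 1 (0.0693). The paralog Ppard had a log2 fold change of -0.43 at 18 h (SE 0.122, adjusted p = 0.0497), at the threshold, and was called in 7 of 17 alternatives.

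Nr1h3 encodes LXRα, the oxysterol receptor. Nr1h3 had normalised counts of 616, 402 and 837 in the control mice, 715, 368 and 585 in the 18h-αGal mice and 499, 456 and 414 in the 72h-αGal mice. Control and 18h-αGal mice varied widely among themselves, and the log2 fold change was -0.13 at 18 h (95% interval -0.70 to 0.43) and -0.41 at 72 h (-0.98 to 0.16, adjusted p = 0.885 in edgeR), or 0.13 and -0.15 without control replicate 3. Of 11 LXR targets 1 (9.09%) was called at 18 h, beside 5.96% of all genes, and 1 between 18 and 72 h, beside 10.2%. Both calls were of Scd2, a fatty acid desaturase. Scd2 rose by 2.69 on the log2 scale at 18 h (SE 0.266, adjusted p = 0.000214) and fell by 2.87 between 18 and 72 h (adjusted p = 0.000114). Normalised counts of Scd2 were 360.0, 489.8 and 442 in the control mice, 3610.0, 2184 and 2442 in the 18h-αGal mice and 424, 468 and 236 in the 72h-αGal mice. Abca1, the cholesterol exporter and a standard LXR target named after its values were seen, had a log2 fold change of -1.65 (adjusted p = 0.151), and the median of the list was -0.0153. The control mice varied widely in Abca1, at 454 ± 425 normalised counts.

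**Figure D4:**
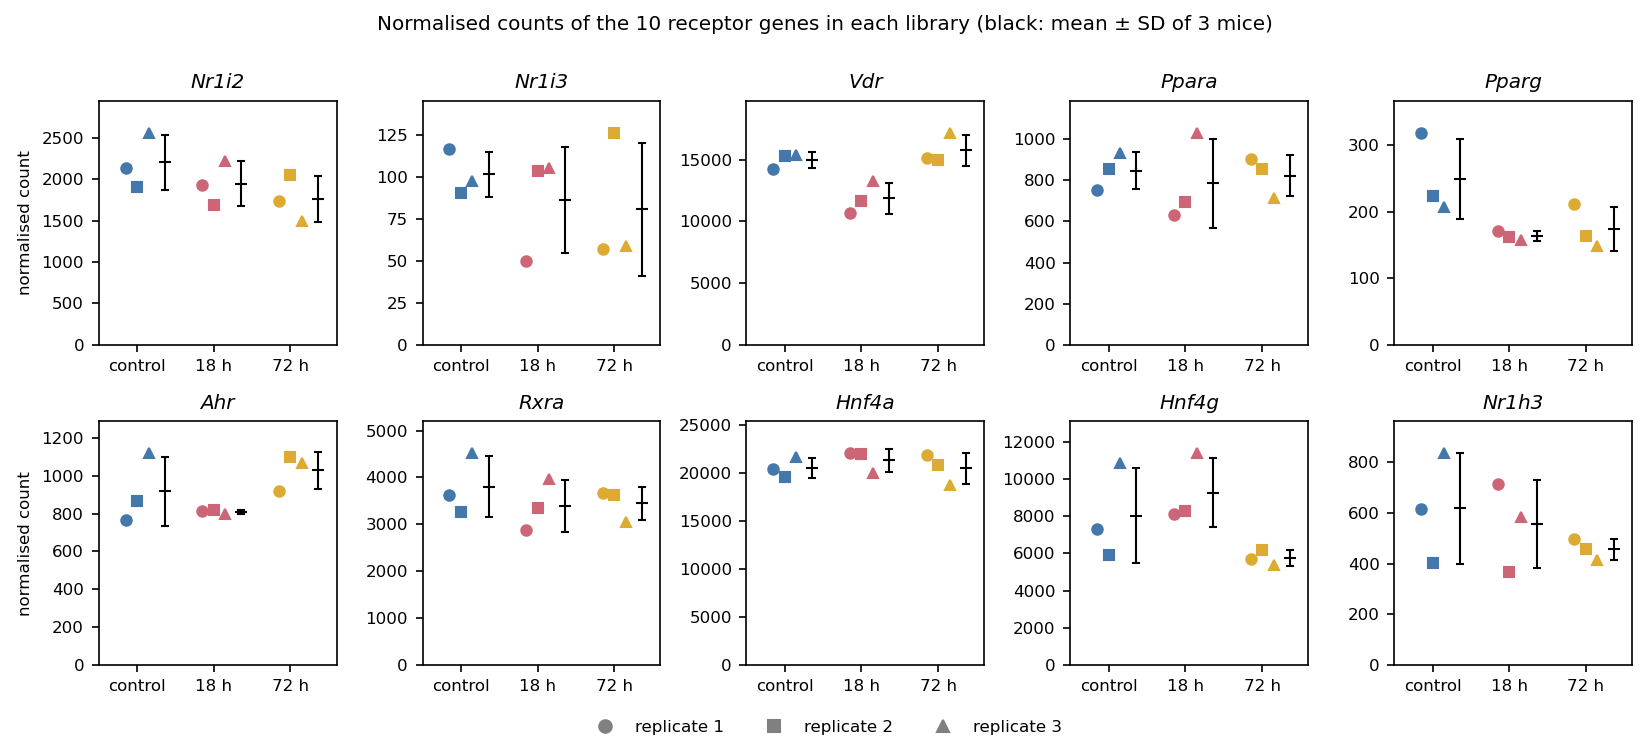
Normalised counts of the 10 genes in each library, from 0, with the replicate shown by the marker shape and the mean ± SD of 3 mice in black. Vdr dips at 18 h, Hnf4g is low in all 72h-αGal mice, and Hnf4a is nearly level.

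Vdr encodes the vitamin D receptor, which in the duodenum controls calcium uptake. Its normalised counts were 14289, 15299 and 15432 in the control mice, 10684, 11679.5 and 13249 in the 18h-αGal mice and 15163, 14968 and 17203 in the 72h-αGal mice. The 18h-αGal values lay under those of all other libraries. At 18 h against control its log2 fold change was -0.33 (SE 0.110, 95% interval -0.57 to -0.098), with an unadjusted p of 0.00864 and an adjusted p of 0.0907 in edgeR. limma-voom gave an adjusted p of 0.0413 and edgeR without 18h-αGal replicate 3 gave 0.044. Between 18 and 72 h Vdr rose by 0.42 (SE 0.110, 95% interval 0.19 to 0.65, adjusted p = 0.0247), a 1.34-fold difference, and at 72 h it differed from control by 0.088 (-0.15 to 0.32). The rise was called in 13 of 17 alternatives; the adjusted p was 0.103 without 18h-αGal replicate 1, 0.0896 without 18h-αGal replicate 2, 0.0542 without 72h-αGal replicate 1 and 0.12 without 72h-αGal replicate 3.

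Crypt stem cell markers were lowest in the same group as Vdr. The summed level of 8 stem cell markers was 2344 to 4554 CPM in the control, 722 to 2287 CPM in the 18h-αGal and 3105 to 4923 CPM in the 72h-αGal mice. At 18 h all 8 had a negative log2 fold change (52.4% of all genes), 0 were called by edgeR and 3 had an unadjusted p under 0.05 (20.8% of all genes); between 18 and 72 h all 8 were positive and 1 was called. Within the 18h-αGal group the library with the lowest stem marker sum had the highest Vdr count. The part of these markers in the Vdr values was not tested.

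The VDR targets are genes of calcium, phosphate and vitamin D handling. Of 8 targets, 0 were called by edgeR, DESeq2 or limma-voom in any of the 3 comparisons, with 0 at 18 h, 3 at 72 h and 1 between 18 and 72 h at an unadjusted p under 0.05 (20.8%, 5.94% and 24.3% of all genes). Their median log2 fold change was -0.184 at 18 h and -1.06 at 72 h against control. The low end at 72 h was held by genes of mineral transport and vitamin D breakdown: Slc34a2, a phosphate transporter, had -3.11 (SE 1.26, adjusted p = 0.827), Cyp24a1, which degrades vitamin D, -2.21 (SE 1.02, adjusted p = 0.83), and S100g, which encodes the calcium carrier calbindin, -1.10 (SE 0.432, adjusted p = 0.826). These 3 were named after their values were seen. Slc34a2 varied widely among the control mice, at 405 ± 543 normalised counts. Cldn2 and Cldn12, claudins of calcium-permeable junctions, had 0.24 and 0.00031.

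Rxra encodes the shared partner of PXR, CAR, PPARs, LXRs and VDR. Its normalised counts were 3626, 3265 and 4519 in the control mice, 2869.5, 3347 and 3968 in the 18h-αGal mice and 3671, 3617 and 3044 in the 72h-αGal mice. The groups overlapped, and the log2 fold change was -0.16 at 18 h (95% interval -0.46 to 0.14), -0.13 at 72 h (-0.43 to 0.17) and 0.029 between 18 and 72 h (-0.27 to 0.33). Without control replicate 3 the first 2 were -0.022 and 0.011. Of 14 coregulators and chaperones, which dock to receptors or hold them ready for ligand, 1 rose and 1 fell at 18 h (3.27% and 2.69% of all genes). Ptges3, which encodes the HSP90 cochaperone p23, rose by 0.75 on the log2 scale (SE 0.126, adjusted p = 0.00303 in edgeR), and the corepressor gene Ncor1 had a log2 fold change of -0.42 (adjusted p = 0.0354). Normalised counts of Ptges3 were 2469, 2321 and 2263 in the control mice, 4035, 4504 and 3285 in the 18h-αGal mice and 2397, 2167 and 2094 in the 72h-αGal mice. All 18h-αGal values were above all others. Between 18 and 72 h 2 of the 14 fell (6.04% of all genes) and 0 rose. These were Ptges3, with a log2 fold change of -0.82, and the chaperone gene Hsp90ab1, with -0.56 (edgeR adjusted p = 0.00132 and 0.00848). Hsp90ab1 was named after its values were seen. Ncor1 was called in 8 of 17 alternatives, and its adjusted p was between 0.052 and 0.151 without any 1 of the control mice, 18h-αGal replicate 1 or 2, or 72h-αGal replicate 1 or 2.

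Several other nuclear receptors fell at 18 h. Of 20 tested out of 23 listed, 7 fell at 18 h and 0 rose (2.69% and 3.27% of all genes), with a median log2 fold change of -0.239 (all genes, -0.0301). The 4 with the smallest adjusted p were the circadian repressors Nr1d1 (-0.76, adjusted p = 0.00736 in edgeR) and Nr1d2 (-0.89, adjusted p = 0.0147) and the thyroid hormone receptors Thrb (-0.63, adjusted p = 0.0158) and Thra (-0.62, adjusted p = 0.0215). The remaining 3 were the glucocorticoid receptor gene Nr3c1, the bile acid receptor gene Nr1h4 and Ppard. Between 18 and 72 h 4 of the 20 rose (4.18% of all genes) and 0 fell. Nr1d1 rose by 1.02, Nr1d2 by 1.31, Thrb by 0.62 and the retinoic acid receptor gene Rara by 0.41. The 7 became 3 without control replicate 1, control replicate 2 or 18h-αGal replicate 1, 3 with only the 6 libraries of the comparison and 1 without 18h-αGal replicate 2, and the 4 became 2 without 18h-αGal replicate 2. Nr1d1 was called at 18 h in 16 of 17 alternatives, all but that without control replicate 1 (adjusted p = 0.0565). The rise of Rara was called in 8 of 17. Its call was lost without control replicate 1 or any 1 of the 18h-αGal or 72h-αGal replicates (edgeR adjusted p = 0.0543 to 0.162).

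Of the HNF4 genes, Hnf4a stood nearly level across groups while Hnf4g was lowest at 72 h. Hnf4a had normalised counts of 20453, 19616 and 21679 in the control mice, 22115, 21989 and 19999.8 in the 18h-αGal mice and 21947, 20888 and 18775 in the 72h-αGal mice. Its log2 fold change was 0.063 at 18 h (95% interval -0.16 to 0.28) and 0.012 at 72 h (-0.21 to 0.23), the narrowest intervals of the 10 genes, and the sign of both depended on the scaling of the libraries. Without control replicate 3 they were 0.094 and 0.048. Hnf4g had normalised counts of 7299, 5938 and 10869 in the control mice, 8124, 8286 and 11407 in the 18h-αGal mice and 5679, 6194 and 5374 in the 72h-αGal mice. All 72h-αGal values lay under all 18h-αGal values, and control replicate 3 and 18h-αGal replicate 3 were the highest. Between 18 and 72 h Hnf4g fell by 0.68 on the log2 scale (SE 0.192, 95% interval -1.10 to -0.26, adjusted p = 0.043 in edgeR), a 0.624-fold level. Against control its log2 fold change was 0.22 at 18 h (-0.20 to 0.63) and -0.46 at 72 h (-0.88 to -0.047, adjusted p = 0.826). Both depended on control replicate 3, without which they were 0.49 (adjusted p = 0.0545 in edgeR) and -0.19.

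The Hnf4g call was close to the threshold. It was made in 7 of 17 alternatives, with a value between -0.76 and -0.51 in all of them. The adjusted p was 0.0623 without control replicate 1, 0.053, 0.0751 and 0.147 without 18h-αGal replicates 1, 2 and 3, and 0.127, 0.0811 and 0.17 without 72h-αGal replicates 1, 2 and 3. Without control replicate 3 it was 0.0028.

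The ratio of Hnf4a to Hnf4g within a library does not depend on library scaling. Per kilobase it was 2.44, 2.88 and 1.74 in the control mice, 2.37, 2.31 and 1.53 in the 18h-αGal mice and 3.37, 2.94 and 3.05 in the 72h-αGal mice. The 72h-αGal ratios were above all others. The mean log2 ratio differed by 0.62 between 72h-αGal and 18h-αGal mice and by 0.43 between 72h-αGal and control mice, each with p = 0.1 in a two-sided exact permutation test, the smallest p that 3 against 3 allows, and by -0.18 between 18h-αGal and control mice (exact p = 0.5). The ratio uses the counts of the tests above and is no separate evidence.

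Enterocyte markers were high in the same libraries as Hnf4g. The summed level of 12 enterocyte markers, brush border enzymes and nutrient transporters among them, was 14699, 10144 and 25124 CPM in the control mice, 16365, 14482 and 21745 CPM in the 18h-αGal mice and 10536, 12984 and 7328 CPM in the 72h-αGal mice. Control replicate 3 and 18h-αGal replicate 3 were the highest for these markers as for Hnf4g, and 72h-αGal replicate 3 the lowest. Between 18 and 72 h 10 of the 12 markers had a negative log2 fold change (46.6% of all genes), 0 were called by edgeR and 5 had an unadjusted p under 0.05 (24.3% of all genes). Enterocyte markers were not the only ones lower at 72 h than at 18 h. Enteroendocrine markers summed to 413 to 564 CPM in the control, 592 to 958 CPM in the 18h-αGal and 195 to 302 CPM in the 72h-αGal mice. Tuft markers summed to 121 to 223 CPM in the control, 224 to 410 CPM in the 18h-αGal and 130 to 217 CPM in the 72h-αGal mice. Between 18 and 72 h edgeR called 5 of 8 enteroendocrine and 2 of 5 tested tuft markers lower (6.04% of all genes). At 18 h against control it called 2 of 8 enteroendocrine and 2 of 5 tuft markers higher (3.27% of all genes). At 72 h against control 4 of 8 enteroendocrine and 0 of 5 tuft markers were called lower. The part of any of these cell types in the Hnf4g values was not tested.

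**Figure D5:**
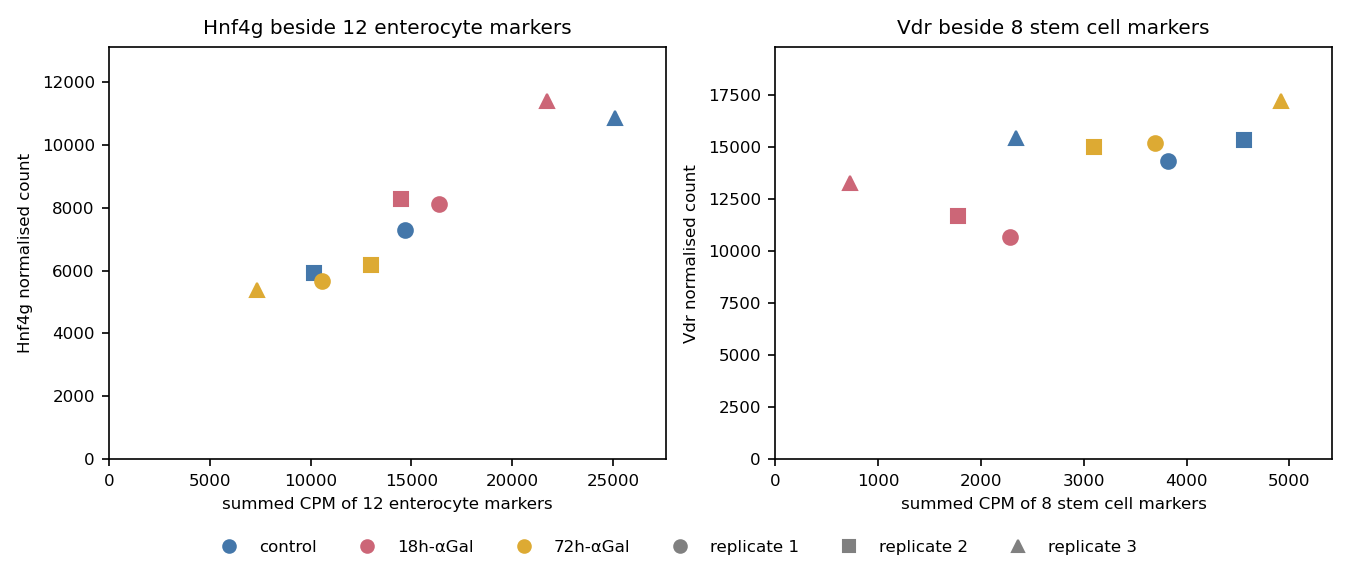
Left, normalised count of Hnf4g against the summed CPM of 12 enterocyte markers; right, normalised count of Vdr against the summed CPM of 8 stem cell markers, 1 point per library, coloured by group. Hnf4g is high where the enterocyte sum is high, whatever the group; for Vdr the 18h-αGal libraries, at 722 to 2287 CPM of stem cell markers, lie under the rest. The pairs plotted were chosen after the values were seen.

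The 13 HNF4 targets, genes of lipoprotein assembly and the brush border, all had negative log2 fold changes at 72 h against control and against 18h-αGal (49.7% and 46.6% of all genes). Their medians were -0.537 and -0.591, where the median of all genes was 0.0022 and 0.046. At 18 h their median was 0.0445. The pattern was not particular to this list: of the 12 enterocyte markers 11 and 10 were negative in the same 2 comparisons, with medians of -0.742 and -0.724. By edgeR 0 of the 13 were called in any comparison, and 0, 1 and 3 had an unadjusted p under 0.05 at 18 h, at 72 h and between 18 and 72 h, where 20.8%, 5.94% and 24.3% of all genes did; DESeq2 called 1 and limma-voom 2 in the last of these. Mttp, which loads lipid onto apolipoprotein B, had means of 32093, 32866 and 18389 normalised counts in the control, 18h-αGal and 72h-αGal mice (log2 fold change -0.79 at 72 h, adjusted p = 0.826), and was named after its values were seen.

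Among 11148 tested genes with a mean of at least 100 counts, those whose log2 CPM over the 9 libraries was most like that of Vdr were Gm37510 and Kmt2e (both Pearson r = 0.985) and Gm38236 (r = 0.979). Those most like Hnf4g were Vps37a (r = 0.986), Lipe (r = 0.983) and Arhgap17 (r = 0.980). These values describe libraries that share group, depth and cell makeup.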

How the data were processed

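RNA was sequenced from sorted crypt epithelial cells of 9 mice, 3 per group, in strand-directional, ribosomal RNA-depleted libraries. The authors mapped reads with HISAT2, and featureCounts from Subread is named in the submitters' processing notes. The methods name the genome build GRCm39, the notes GRCm38 and mm10. The strand setting and the annotation release are not given in the sources used here, so reads of genes that overlap on opposite strands could be shared. The authors deposited raw counts per gene, and a normalised signal that equals the raw count divided by 1 size factor per library (DESeq2 1.42.0 in the notes), with no length correction.

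Raw counts were tested with edgeR 4.0.16 in R 4.3.3 (filterByExpr, TMM scaling, robust quasi-likelihood fit of all 9 libraries, common dispersion 0.123). P-values were two-sided and adjusted over all 18933 genes by the Benjamini-Hochberg method. Genes were called at an adjusted p under 0.05. Intervals are 95%. Levels per length are CPM divided by the exon length in GENCODE vM39, to which 28480 of 29288 identifiers, with 98.4% of counts, matched. On simulated counts with 200 genes changed 4-fold at 18 h, edgeR recovered 195 with 9 false calls in that comparison, over 18135 genes. The same dispersion was set for every gene, and only genes above a minimum count were changed. Recovery of smaller changes, such as those of the receptor genes, was not simulated.

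Alternatives were DESeq2, limma-voom (limma 3.58.1), other scalings, filters, a replicate block and leaving out each library. Depth was 8887861 to 32722293 counts per library. No molecular identifiers are described, so several reads may stem from 1 molecule and a floor allows for counting error alone. The 10 genes and the lists of targets, partners and markers, written from general knowledge, were chosen with earlier results of these data known. An item of the PPAR target list and a promoter motif are not reported here. From each list at most 4 called genes were named, those with the smallest adjusted p at 18 h, and others are said to be named after their values were seen. For each called receptor gene the 3 genes most like it over the 9 libraries (log2 CPM, prior count 2) were named.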

Additional observations from a re-analysis of the deposited data

Results flagged for a closer look

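Vdr and Hnf4g differed between the 2 time points after αGalCer by the test of that difference. The log2 fold change of Vdr between 72h-αGal and 18h-αGal mice was 0.42, higher at 72 h in 3 of 3 mice than in any 18h-αGal mouse (edgeR adjusted p = 0.0247). That of Hnf4g was -0.68, lower in 3 of 3 mice (adjusted p = 0.043). By edgeR on all 9 libraries neither gene was called against control at 18 h or at 72 h, whereas limma-voom called Vdr at 18 h (adjusted p = 0.0413), as did edgeR without 18h-αGal replicate 3 (0.044).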

How the results depend on the processing

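Of 510 values (10 genes, 3 comparisons, 17 alternatives), 486 kept their sign, and the 24 that changed it were at most 0.1289 in size. A call was gained in 2 and lost in 14. The number of the 10 genes called at 18 h became 1 with limma-voom and was 0 to 1 with 1 library left out; at 72 h against control it was 0 under every alternative; between 18 and 72 h it became 1 with upper-quartile scaling, without a filter and with at least 50 counts in 3 libraries, and was 0 to 2 with 1 library left out. All genes called were 593 at 18 h with only the 6 libraries of the comparison (432 to 1556 leaving out 1 library), 831 to 2593 leaving out 1 library between 18 and 72 h, and at 72 h against control 30 with DESeq2, 13 without a filter, 3 with the stricter filter and 0 to 20 leaving out 1 library. The cause of these shifts was not tested.

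Sign changes fell on values near 0. Hnf4a became -0.0006403 at 18 h and 0.02649 between 18 and 72 h with upper-quartile scaling, and at 72 h -0.003138 with DESeq2, -0.00319 with RLE scaling and -0.000482 with the stricter filter. With 1 library left out, the log2 fold changes whose sign changed ran at 18 h from -0.4061 to 0.03692 for Nr1i3, -0.3385 to 0.03038 for Ppara and -0.3662 to 0.1289 for Nr1h3, at 72 h against control from -0.09814 to 0.06826 for Ppara, -0.2181 to 0.01091 for Rxra and -0.03215 to 0.06918 for Hnf4a, and between 18 and 72 h from -0.5489 to 0.1208 for Nr1i3, -0.051 to 0.3203 for Ppara, -0.06262 to 0.1963 for Pparg, -0.07136 to 0.1545 for Rxra and -0.09622 to 0.0056 for Hnf4a. The log2 ratio of Hnf4a to Hnf4g at 18 h against control ran from -0.3843 to 0.02419, the latter without 18h-αGal replicate 3.

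Other receptors called lower at 18 h were 3 with only the 6 libraries of the comparison, against 7. PXR and CAR targets called lower at 18 h were 12 with DESeq2, 11 with limma-voom and 4 without a filter, against 7, and between 18 and 72 h called higher 10 with DESeq2 and 3 without a filter, against 5.

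Replicate numbers recur in each group but belong to different mice, and deviations from group means of same-numbered libraries correlated at -0.149 to 0.114, so the numbers were not taken as pairs. With the replicate number as a block, 781, 1 and 1371 genes were called at 18 h, at 72 h and between 18 and 72 h, 0, 0 and 2 of the 10 genes were called, and 0 of 9 libraries correlated best with its own number. PXR and CAR targets called lower at 18 h were then 3 and other receptors 4.

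With 3 mice per group, intervals of the low genes Nr1i3, Pparg and Nr1h3 were wide, and a p over the threshold does not show equal levels.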
